A study of Mus musculus with 68 samples.

Results

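The comparison examined here was the lung of mice 2 h after an injection of Egf, epidermal growth factor, against the lung of mice 2 h after an injection of its solvent. Its libraries were those titled lung with Egf at 2 h (4 libraries) and lung with vehicle at 2 h (3 libraries), 7 of the 68 libraries of a study that asked whether the response to Egf differs among organs. All mice were wild-type female C57BL/6J animals aged 10 weeks. The dose of Egf was 1 mg/kg, dissolved in PBS, phosphate-buffered saline, and vehicle mice were given PBS alone; both injections were retro-orbital, under isoflurane, so anaesthesia and injection were shared by both groups. Untreated mice of the same strain, sex and age (3 lung libraries) received neither, and lungs taken 6 h after Egf (4 libraries) or vehicle (3 libraries) completed the 5 lung groups. The frozen lung tissue was pulverised before RNA extraction, so each library holds RNA of many cell types of the organ and of any blood left in it.

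Egf is a secreted growth factor that binds the receptor tyrosine kinase Egfr at the cell surface. Ligand binding joins Egfr to itself or to its relatives Erbb2, Erbb3 and Erbb4 and starts the Ras, MAP kinase and PI3 kinase pathways, which induce transcription factors, feedback inhibitors and further ligands of the same family. In the lung, Egfr and its ligands are known for roles in the growth and repair of the airway and alveolar epithelium.

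Totals of the 7 libraries lay between 17804061 and 21430960 counted reads. Defining transcripts of alveolar type II cells, the surfactant-producing cells of the lung, summed to 35540.4 to 46548 CPM, reads scaled to a fixed library total, in the 17 lung libraries, against a median of 109 in heart, 94.8 in liver and 5315 in kidney. Transcripts of another organ were present in unequal amounts. Alb, the albumin gene of hepatocytes, was at 2445, 804, 277 and 1211 CPM of the library total in Egf libraries 1 to 4 and at 44.1, 3.71 and 347 in vehicle libraries 1 to 3. The sum of 16 hepatocyte markers, each of them detected in lung, was 522 to 4366 CPM in the Egf libraries, 32.0 to 826 in the vehicle libraries and 26.3 to 109.9 in untreated lung. All 16 had an estimate above 0 (median log2 change 2.64), and the Egf and vehicle ranges overlapped. Neither Alb (log2 change 3.17 ± 2.498 SE, adjusted p = 0.850) nor another hepatocyte marker was called in edgeR. In the lungs taken at 6 h the sum was 37.7 to 34376 CPM with Egf and 43.5 to 3651 with vehicle.

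Of 16778 genes tested, 116 rose and 25 fell in the Egf lungs at an adjusted p under 0.05 (edgeR quasi-likelihood test over the 17 lung libraries, Benjamini-Hochberg adjustment). The calls were 0.84% of the genes tested, 0.691% for rises and 0.149% for falls. At an unadjusted p under 0.05, edgeR had 1423 of the 16778 genes, 794 higher and 629 lower. The median log2 change was 0.88 among the rises and -0.78 among the falls, against -0.000809 over all genes tested. At least a 2-fold change was estimated for 49 of the rises and 6 of the falls. Each of the 141 genes had values that did not overlap between the 4 Egf and the 3 vehicle libraries, as did 5.65% of all genes tested with Egf higher and 3.96% with Egf lower. The Egf mean was above the untreated mean for all 116 rises and below it for all 25 falls. Of the 141 genes, 137 were protein-coding, and 5 were among the 1071 tested genes to which the deposited table assigns a transcription factor family.

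The call of a gene often rested on single libraries. Leaving out Egf library 1, 2 or 4 gave 72, 92 and 88 calls, leaving out vehicle library 1, 2 or 3 gave 48, 56 and 49, and leaving out Egf library 3 gave 114. In these 7 fits, 27 of the 135 genes with an informative symbol, at least 1 CPM and groups without overlap passed every time. None of the 135 changed direction, which groups without overlap all but fix in advance when a library is left out. A fit with the summed neutrophil markers as a covariate called 26 genes, and one with the summed hepatocyte markers 85. The neutrophil sums did not overlap between the groups, so that covariate cannot be separated from treatment. Below, each change is a log2 value ± its standard error (SE). Each level is in CPM after TMM scaling, with means ± standard deviation (SD), and edgeR gave every adjusted p. The labels number the libraries of a group without saying whether each came from a separate mouse, so p values measure the spread between these libraries. The called genes were sorted into groups by their known roles after the calls had been seen, so the size of a group is a description.

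**Figure D1:**
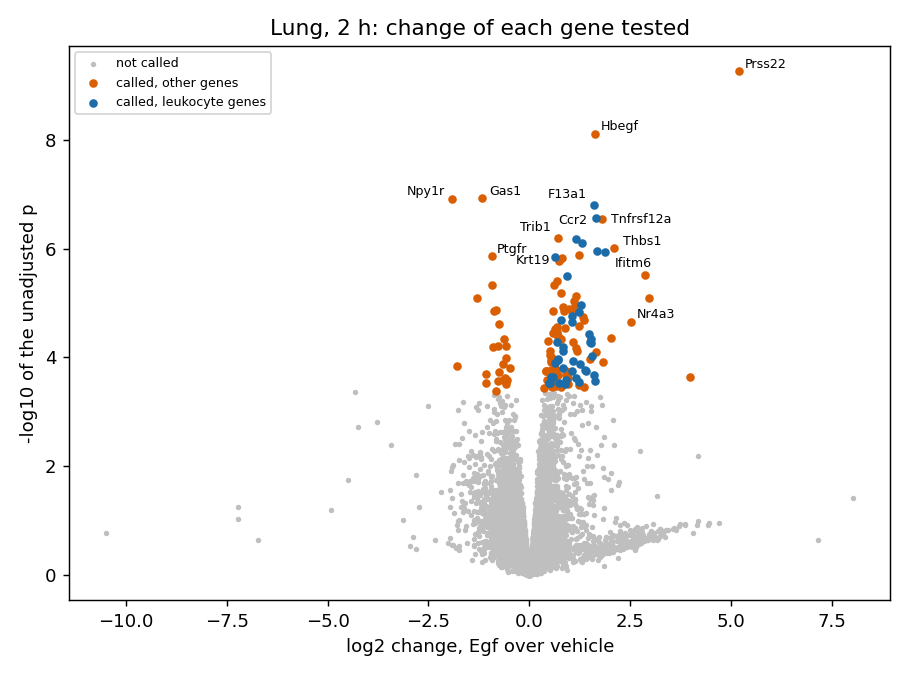
Log2 change (x axis, Egf over vehicle) against -log10 of the unadjusted p (y axis) for the 16778 genes tested in lung at 2 h, with 1 point a gene. Coloured points are the 141 called genes, blue for 41 leukocyte genes and orange for all others. Called genes lie mostly on the right, 116 against 25, with Prss22 and Hbegf at the smallest p.

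Among the ligands of the Egf receptor family, Hbegf, Areg and Nrg1 rose, 3 of 9 ligands tested, with a median log2 change of 0.38 over the 9. Hbegf encodes heparin-binding Egf-like growth factor, a membrane-anchored ligand of Egfr and Erbb4 that is released by cleavage. Its level was 208, 184, 204 and 222 CPM in Egf libraries 1 to 4 and 78.04, 51.7 and 68.3 in vehicle libraries 1 to 3. All 4 Egf lungs were more than 2-fold above every vehicle lung, while untreated lungs (70.6, 46.9 and 56.6 CPM) overlapped the vehicle range. The log2 change was 1.63 ± 0.15 (SE) with adjusted p = 6.59e-05, and the gene passed in each of the 7 fits without a library. Hbegf (ENSMUSG00000024486) lies on chromosome 18 from 36637980 to 36648858 of build mm39.

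Areg encodes amphiregulin, a ligand of Egfr, and Nrg1 encodes neuregulin 1, a ligand of Erbb3 and Erbb4. Areg was at 9.87, 10.8, 15.4 and 12.2 CPM with Egf and 4.25, 4.71 and 6.95 with vehicle (log2 change 1.18 ± 0.23 SE, adjusted p = 0.0180). Nrg1 was at 14.01, 17.5, 21.9 and 15.7 CPM with Egf and 10.9, 6.18 and 6.09 with vehicle (1.16 ± 0.22 SE, adjusted p = 0.0160). For both genes the lowest Egf library was above the highest vehicle library. The call of Areg was lost without vehicle library 1 or vehicle library 2, and that of Nrg1 without vehicle library 2 or vehicle library 3.

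Per length of gene, Hbegf stood highest among the ligands with Egf at 42.3 ± 3.21 RPKM (SD, n = 4). RPKM here is the CPM divided by the deposited gene length in kilobases. Below it were Areg at 9.91 ± 1.97, Tgfa at 5.90 ± 1.01 and Nrg1 at 1.12 ± 0.222. With vehicle, Hbegf at 13.7 ± 2.76 RPKM (n = 3) again came first, and Tgfa at 5.17 ± 0.0534 and Areg at 4.37 ± 1.19 lay within their spread of each other. The other ligands did not pass. Ereg, which encodes epiregulin, was at 0.662, 1.35, 0.974 and 1.11 CPM with Egf and 0.271, 0.284 and 0.689 with vehicle (log2 change 1.31 ± 0.92 SE, adjusted p = 0.802), so its groups overlapped. Adjusted p values were 0.779 for Tgfa (0.19 ± 0.13), 0.781 for Nrg2 (0.38 ± 0.25), 0.951 for Nrg4 (0.21 ± 0.32) and 0.962 for Btc (-0.10 ± 0.18). The transcript of Egf itself was at 0.0640 ± 0.0480 RPKM with Egf and 0.0806 ± 0.0344 with vehicle, against a mean of 1.23 in untreated lungs. Untreated library 3 also held 359 CPM of kidney tubule markers, against 0.723 and 1.52 in untreated libraries 1 and 2. Whether these are linked was not tested.

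The receptors themselves gave no call in edgeR (0 at an unadjusted p under 0.05, 0 in DESeq2 and 0 in limma voom). Erbb3 was at 11.3 ± 2.69 RPKM with Egf and 9.501 ± 2.13 with vehicle, and Erbb2 at 9.77 ± 2.09 and 8.07 ± 1.85. These 2 receptors did not differ from each other beyond their spread. Egfr lay below them at 3.20 ± 0.540 and 2.55 ± 0.380 RPKM, with a log2 change of 0.33 ± 0.48 (SE) and adjusted p = 0.950. Erbb4 was lowest at 0.0544 ± 0.0309 and 0.0729 ± 0.0289 RPKM. The 9 genes listed for ligand cleavage, proteases of the Adam family and their partners, had a median log2 change of 0.08 and no call in edgeR (2 at an unadjusted p under 0.05, 0 in DESeq2 and 0 in limma voom).

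Of the called ligands, the promoter of Areg is shown for the element it carries near the start site, as given by RefSeq (build GRCm38.p6). The window is the 250 bases before the start, chr5:91139349-91139598 on the plus strand, written 5′ to 3′. Capitals mark each match to TGACG, the core of the cAMP response element, on either strand, with starts at -115, -61 and -58 relative to the start site, of which the last 2 overlap as TGACGTCA.
Areg: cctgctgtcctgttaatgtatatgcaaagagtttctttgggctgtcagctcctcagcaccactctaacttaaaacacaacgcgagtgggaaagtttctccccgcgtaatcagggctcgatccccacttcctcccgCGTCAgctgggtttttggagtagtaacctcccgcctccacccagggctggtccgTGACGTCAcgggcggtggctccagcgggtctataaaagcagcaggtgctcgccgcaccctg
The palindrome TGACGTCA was present in 3 of 73 windows of rises outside the leukocyte genes described below (4.11%) and in 2.31% of the 15560 windows of tested genes, and TGACG in 24.7% and 24.3%. These shares are a description without a test.

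Transcription factors and coregulators among the rises were Nr4a3, Maff, Mafk, Nab2, Bcl3 and Sbno2. Nr4a3, an orphan nuclear receptor of the immediate early class, was at 113, 115, 114 and 126 CPM in the Egf libraries, 18.4, 14.1 and 28.5 in the vehicle libraries and 3.65, 13.7 and 3.71 in untreated lungs. The Egf libraries were close to each other, and each was far above the highest of the other 6. Its log2 change was 2.52 ± 0.40 (SE, adjusted p = 0.00860), with the call lost without vehicle library 1 or vehicle library 2.

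Maff and Mafk are small Maf proteins, which lack an activation domain and act as partners of other bZIP factors. Maff was at 67.01, 81.8, 76.2 and 94.4 CPM with Egf and 34.8, 29.3 and 49.3 with vehicle, with untreated lungs lower still at 13.04, 22.3 and 13.7 CPM (log2 change Egf over vehicle 1.08 ± 0.20 SE, adjusted p = 0.0141). Mafk was at 166, 182, 186 and 207 CPM with Egf and 125, 107 and 129.9 with vehicle (0.62 ± 0.092 SE, adjusted p = 0.00348), and was the gene of this group that passed without each of the 7 libraries. Nab2, a corepressor of Egr factors (0.67 ± 0.14), Bcl3, a nuclear partner of NF-kB (0.79 ± 0.17), and Sbno2 (0.65 ± 0.14) had adjusted p values of 0.0379, 0.0405 and 0.0384 and passed in none of those 7 fits.

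On a list of immediate early transcription factors, 3 of 22 tested genes were called (Nr4a3, Maff and Nab2), and the estimates of all 22 were above 0 with a median of 0.35. The next by p was Atf3, at 16.3, 13.4, 11.9 and 12.8 CPM with Egf and 6.97, 7.15 and 8.27 with vehicle. Its groups did not overlap, but its adjusted p in edgeR was 0.0754. Of the 22, edgeR had 12 at an unadjusted p under 0.05, all higher. DESeq2 called 7 of the 22 and limma voom 11, all higher. On a list of feedback inhibitors of MAP kinase and Egfr signalling, no member of 22 was called in edgeR, and the median was 0.21. In edgeR 8 of them were at an unadjusted p under 0.05, beside 1423 of all 16778 genes tested. DESeq2 called 2 and limma voom 7, and all of these, like the 8, were higher. Spred1, which restrains Raf activation, was at 198, 193, 180.3 and 203 CPM with Egf and 142, 130.4 and 148 with vehicle (0.47 ± 0.11 SE, adjusted p = 0.0533). Dusp6, a phosphatase of Erk, was at 152, 142, 137 and 167 CPM with Egf and 104, 87.8 and 123 with vehicle (0.51 ± 0.12 SE, adjusted p = 0.0581). Both had Egf values above every vehicle value, and both missed the threshold narrowly. Spry2 (0.49 ± 0.14, adjusted p = 0.133) and Dusp5 (0.49 ± 0.15, adjusted p = 0.209) were further from it.

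The promoters of Nr4a3 and Maff are shown for their several matches to TGACG. They are windows of the same table and length, chr4:48045055-48045304 for Nr4a3 and chr15:79347270-79347519 for the second of 3 listed Maff start sites, both on the plus strand, with the matches in capitals. Matches started at -231, -213, -205 and -147 in Nr4a3 and at -29 and -26 in Maff.
Nr4a3: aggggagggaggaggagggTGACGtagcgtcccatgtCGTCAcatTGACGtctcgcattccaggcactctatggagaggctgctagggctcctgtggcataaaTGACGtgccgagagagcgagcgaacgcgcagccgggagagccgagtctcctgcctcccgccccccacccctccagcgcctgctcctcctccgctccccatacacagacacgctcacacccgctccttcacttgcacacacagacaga
Maff: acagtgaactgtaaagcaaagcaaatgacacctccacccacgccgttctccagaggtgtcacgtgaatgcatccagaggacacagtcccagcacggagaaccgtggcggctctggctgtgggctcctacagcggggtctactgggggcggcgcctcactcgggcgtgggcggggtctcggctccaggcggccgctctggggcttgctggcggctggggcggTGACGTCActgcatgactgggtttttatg
In Maff, as in Areg, a pair of matches forms TGACGTCA.

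Genes of the extracellular matrix, adhesion and proteolysis made up 12 rises with a median log2 change of 0.68. The largest called change in lung was that of Prss22, a secreted serine protease of airway epithelium. Its level was 2.81, 2.75, 3.67 and 2.01 CPM in the Egf libraries, 0.0905, 0.0567 and 0.0574 in the vehicle libraries and 0.161, 0.251 and 0.269 in untreated lungs. The vehicle values stand for 2, 1 and 1 counted reads, against 200 reads over the Egf libraries, a ratio of summed CPM of 40.1 with a 95% counting interval (exact) of 15.4 to 148 that covers counting error only. The fitted log2 change was 5.203 ± 0.40 (SE, adjusted p = 9.22e-06), and Prss22 was the one gene that passed in all 19 alternative fits. Prss22 (ENSMUSG00000045027) lies on chromosome 17 from 24212508 to 24217074 of mm39, and the other 11 tested serine proteases of epithelium on its list were not called in edgeR.

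Thbs1 encodes thrombospondin 1, a secreted glycoprotein that binds matrix and activates latent Tgf-beta. It was at 1129.8, 938, 951 and 1459.9 CPM with Egf, 281, 161 and 342 with vehicle and 123, 184 and 118 in untreated lungs. The groups did not overlap in either comparison, and the log2 change over vehicle was 2.100 ± 0.27 (SE, adjusted p = 0.00147). Adamts1, a metalloprotease that cleaves proteoglycans, was at 186, 148, 170.4 and 209.9 CPM with Egf and 92.1, 68.5 and 88.98 with vehicle (1.101 ± 0.17 SE, adjusted p = 0.00559). Untreated lungs held 131, 107 and 76.3 CPM of Adamts1, below every Egf lung and overlapping the vehicle range. Sdc4, the cell surface proteoglycan syndecan 4, rose from 238 ± 13.8 CPM (SD, n = 3) to 385 ± 55.6 (n = 4), a log2 change of 0.69 ± 0.10.

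Prss22, Thbs1, Adamts1 and Sdc4 passed without each of the 7 libraries, and the other 8 genes of the group did not. Ccn1, a matricellular protein and target of Srf and Yap, was at 210.1, 228, 206 and 209 CPM with Egf and 109, 81.2 and 61.01 with vehicle (1.35 ± 0.29, adjusted p = 0.0424), but an untreated library at 177 CPM came near the Egf level. Mmp19 (0.97 ± 0.21), Plaur, the urokinase receptor (0.66 ± 0.14), Sh3pxd2b, a scaffold of invadopodia (0.67 ± 0.14), and the growth factor gene Tgfb3 (0.59 ± 0.10) also rose. The smallest changes were those of Vasn (0.55 ± 0.12), Tgfbi (0.55 ± 0.11) and Pvr (0.54 ± 0.11). On the list of matrix genes and targets of Srf or Yap, 4 of 24 were called, all higher, beside a median of 0.11 over the list.

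**Figure D2:**
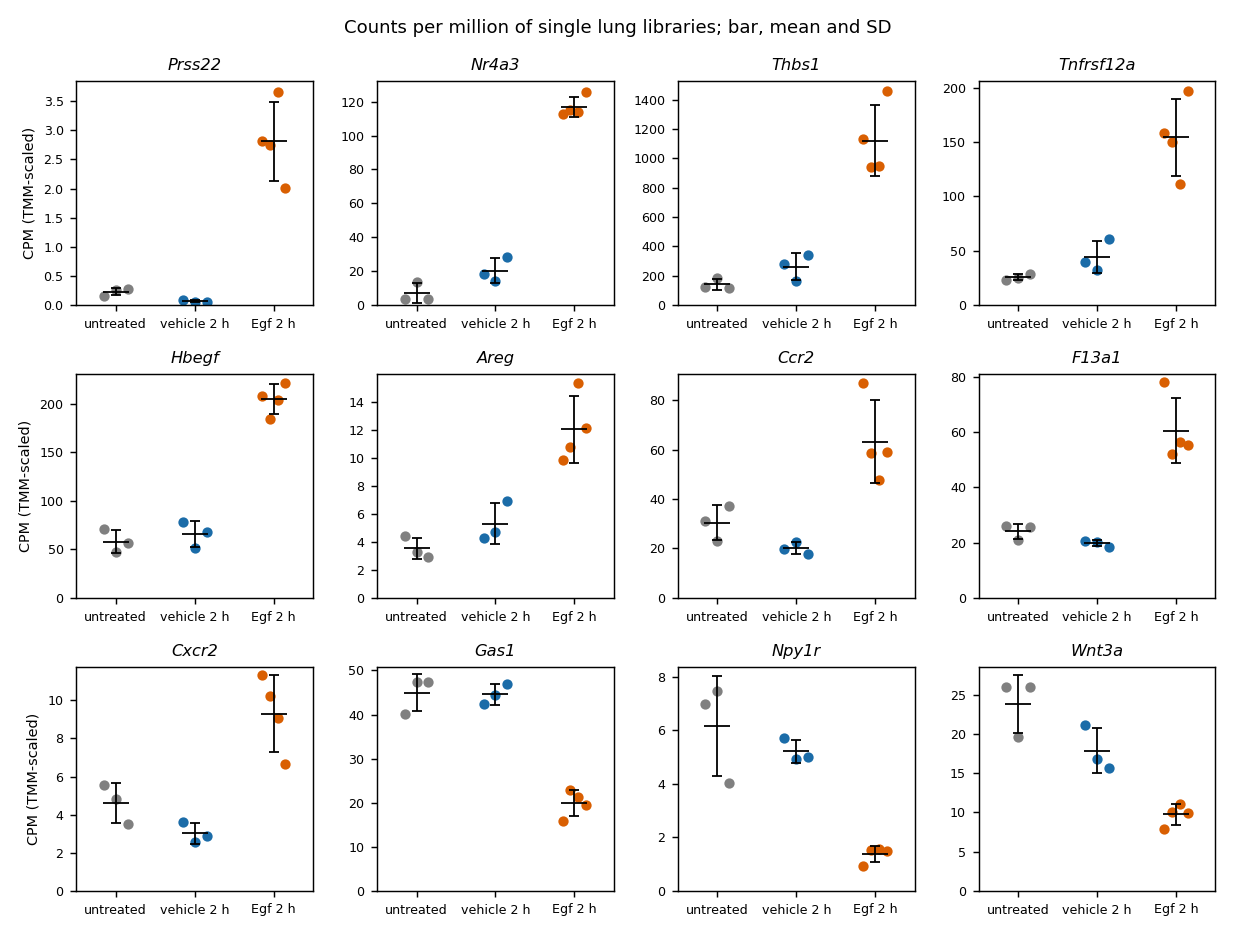
CPM after TMM scaling (y axes, from 0) of 12 named genes in each untreated, vehicle and Egf lung library at 2 h; points are libraries, bars the mean with SD (n = 3, 3 and 4). In every panel the Egf points lie apart from the vehicle points, above them in 9 panels and below them for Gas1, Npy1r and Wnt3a.

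Receptors of cytokines, growth factors and nucleotides accounted for 6 rises. Tnfrsf12a encodes Fn14, the receptor of the cytokine Tweak, and is an early response gene of growth factors. It was at 159, 150.2, 111 and 197 CPM with Egf, 39.2, 32.1 and 60.5 with vehicle and 23.1, 25.1 and 28.3 in untreated lungs, a log2 change over vehicle of 1.81 ± 0.22 (SE, adjusted p = 6.93e-04) that passed without each of the 7 libraries. Epha2, an ephrin receptor kinase, was at 136, 143, 168 and 131 CPM with Egf and 96.0, 73.1 and 73.6 with vehicle (0.84 ± 0.13, adjusted p = 0.00635). Osmr, the receptor of oncostatin M, was at 108, 101, 144 and 122 CPM with Egf and 70.1, 74.7 and 60.7 with vehicle (0.79 ± 0.12, adjusted p = 0.00458). Ptger4, a prostaglandin E2 receptor (0.71 ± 0.15), P2ry2, a receptor of extracellular ATP and UTP (0.64 ± 0.13), and Tnfrsf1a, the receptor of Tnf (0.41 ± 0.085), changed less. Of 23 other early response genes on a list, Tnfrsf12a was the one called in edgeR, and 21 of the 23 estimates were above 0. EdgeR had 8 of the 23 at an unadjusted p under 0.05, DESeq2 called 2 and limma voom 7, all higher.

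The Tnfrsf12a window (GRCm38.p6, chr17:23677450-23677699, minus strand) is shown for 2 overlapping matches to GCGNGGGCG, the element of Egr factors, in capitals with starts at -54 and -48.
Tnfrsf12a: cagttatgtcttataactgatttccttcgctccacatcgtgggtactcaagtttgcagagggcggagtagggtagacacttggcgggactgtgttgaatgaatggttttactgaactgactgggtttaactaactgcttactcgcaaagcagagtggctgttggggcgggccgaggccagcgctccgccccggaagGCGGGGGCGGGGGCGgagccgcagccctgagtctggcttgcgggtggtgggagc
Searched on both strands, GCGNGGGCG was present in 9 of 73 windows of rises outside the leukocyte genes (12.3%). Its share was 8.7% over all rises, 11.1% over the falls, 8.14% over tested genes and 4.7% over all windows. These shares were not tested, and elements other than those printed were also searched.

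Keratin and cytoskeletal genes gave 8 rises with a median of 0.70. Krt19, a keratin of simple and airway epithelium, was at 373, 376, 452 and 369 CPM with Egf and 247, 219.8 and 240.1 with vehicle (0.74 ± 0.10 SE, adjusted p = 0.00156). Krt18, another keratin of simple epithelia, was at 182, 159.7, 204 and 133 CPM with Egf and 99.5, 104 and 106 with vehicle (0.72 ± 0.13, adjusted p = 0.0122). Krt19 and Tubb6, a beta-tubulin at 73.9 ± 11.8 CPM with Egf and 31.2 ± 3.45 with vehicle (1.24 ± 0.17), passed without each of the 7 libraries. Homer1, a scaffold protein (0.89 ± 0.15), Tuft1 (0.68 ± 0.12), the actin regulators Pdlim5 (0.49 ± 0.11), Vasp (0.43 ± 0.092) and Abi2 (0.37 ± 0.083) completed the group.

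Signalling regulators gave 13 rises with a median of 0.70. Trib1, a pseudokinase that directs protein degradation, was at 85.2, 89.4, 87.4 and 87.3 CPM with Egf and 54.97, 51.8 and 53.8 with vehicle (0.71 ± 0.090 SE, adjusted p = 0.00126), and alone in the group passed without each of the 7 libraries. Rras2, a Ras-related GTPase, was at 252, 254, 171 and 344 CPM with Egf and 91.6, 92.2 and 142 with vehicle (1.23 ± 0.21, adjusted p = 0.00955). Its Egf libraries ranged widely, and the lowest of them was near the highest vehicle library. Ptpn1, a phosphatase that acts on receptor tyrosine kinases, rose by a small amount with little spread, from 139.8 ± 4.52 to 192 ± 4.21 CPM (0.46 ± 0.084). The adaptors Bcar3 (0.78 ± 0.14) and Shb (0.70 ± 0.12), the kinase-like Stk40 (0.70 ± 0.13), the deadenylase-related Noct (0.90 ± 0.19) and the cation channel Trpc6 (0.65 ± 0.13) were among the others.

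Genes of sphingolipid and sugar metabolism gave 6 rises. Sphk1, which makes sphingosine 1-phosphate, was at 86.5, 92.7, 95.6 and 107 CPM with Egf and 45.96, 50.6 and 60.5 with vehicle (0.87 ± 0.14, adjusted p = 0.00642), and Sgms2, a sphingomyelin synthase, at 40.4, 30.5, 38.96 and 32.6 CPM with Egf and 17.4, 14.3 and 17.1 with vehicle (1.13 ± 0.18, adjusted p = 0.00635). Gfpt2, the entry enzyme of the hexosamine pathway, was at 39.2, 32.5, 34.9 and 35.9 CPM with Egf and 15.9, 17.3 and 17.1 with vehicle (1.09 ± 0.18, adjusted p = 0.00642). The galactosyltransferases B4galt5 (0.58 ± 0.095) and B4galt1 (0.53 ± 0.10) and Ugdh, which makes the UDP-glucuronate of hyaluronan (0.52 ± 0.099), changed by less. None of the 6 passed in all 7 fits without a library. Outside the groups, Btbd17 rose from 0.144 ± 0.0467 CPM, 8 counted reads over 3 libraries, to 1.15 ± 0.155 CPM (ratio 8.21, 95% counting interval 3.98 to 19.7), and Trim16, Lratd1 and Medag rose by 0.82, 0.98 and 1.16 on the log2 scale and passed without each of the 7 libraries.

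Leukocyte genes were the largest group, 41 of the 116 rises (35.3%), with a median log2 change of 1.08. They included surface markers and receptors of monocytes (Ccr2, Ly6c2, F13a1, Ifitm6) and neutrophils (Cxcr2, Csf3r, Mmp8), Fc receptors, Toll-like receptors and the myeloid transcription factor gene Spi1. In bulk tissue, more cells of a type and more RNA per cell cannot be told apart. Ccr2, the chemokine receptor of inflammatory monocytes, was at 87.1, 58.8, 47.6 and 59.1 CPM with Egf, 19.7, 22.7 and 17.8 with vehicle and 31.1, 23.2 and 37.2 in untreated lungs. F13a1, a transglutaminase subunit of monocytes and platelets, was at 78.04, 52.1, 56.6 and 55.3 CPM with Egf, 20.5, 20.4 and 18.4 with vehicle and 25.9, 21.05 and 25.5 in untreated lungs. In both genes Egf library 1 stood highest and every vehicle lung lay below every untreated lung, with log2 changes over vehicle of 1.65 ± 0.20 (adjusted p = 6.93e-04) and 1.61 ± 0.18 (adjusted p = 5.41e-04).

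Ifitm6, a membrane protein gene of monocytes, was at 11.7, 6.97, 7.16 and 7.64 CPM with Egf and 2.53, 1.76 and 2.47 with vehicle (1.89 ± 0.25, adjusted p = 0.00147). Ly6c2, a surface marker of classical monocytes, was at 71.98, 59.2, 40.9 and 47.9 CPM with Egf and 15.7, 20.03 and 21.7 with vehicle (1.52 ± 0.28, adjusted p = 0.0141), though 1 untreated library reached 51.6 CPM, above 2 of the Egf libraries. Cxcr2, the main chemokine receptor of neutrophils, was at 11.3, 10.2, 9.05 and 6.63 CPM with Egf and 3.62, 2.55 and 2.87 with vehicle (1.62 ± 0.35, adjusted p = 0.0379). Csf3r, the G-CSF receptor, was at 24.9, 16.9, 22.3 and 15.6 CPM with Egf and 9.23, 5.39 and 6.72 with vehicle (1.48 ± 0.26, adjusted p = 0.0118). Slfn1, of the Schlafen family, Emilin2, an extracellular glycoprotein, and Msr1, a macrophage scavenger receptor, rose by 1.56, 1.52 and 1.503 on the log2 scale, from 3.74 ± 0.0105, 9.34 ± 3.44 and 2.397 ± 0.0992 CPM with vehicle (SD, n = 3) to 11.02 ± 1.595, 26.9 ± 5.96 and 6.81 ± 1.68 with Egf (n = 4). Further rises were Mmp8, neutrophil collagenase (1.22 ± 0.27), Cd177 (1.29 ± 0.21), Ccr1 (1.17 ± 0.15), Tlr12 (1.67 ± 0.22), Tlr13 (1.07 ± 0.18), Fcgr1 (1.08 ± 0.21), Fcgr3 (0.64 ± 0.086), C5ar1, the receptor of complement C5a (0.55 ± 0.12), and Spi1, which encodes Pu.1 (0.51 ± 0.11).

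The vehicle mean was below the untreated mean for 35 of the 41 leukocyte genes and for 27 of the other 75, beside 8435 of the 16778 genes tested. Egf library 1 held the highest value for 34 of the 41, while libraries 3 and 4 did so for 7 between them, and that library also had the highest hepatocyte sum. Without Egf library 1, 17 of the 41 were called with a median of 1.00, and over the 7 fits without a library between 9 and 32 were. With the summed neutrophil markers as a covariate 7 were called (median 0.96), with the hepatocyte markers 23 (1.02) and with the monocyte markers 31 (0.96). All 41 estimates stayed above 0 in each of these fits. In the fits without a library this was all but fixed in advance, as the groups of these genes did not overlap. The neutrophil sums did not overlap between the groups, and the neutrophil and monocyte sums include genes of this group. The fits with those sums therefore cannot separate treatment from cell content. Ccr1, Ccr2, Cd177, Cd300a, Clec4a1, F13a1, Fcgr3, Ifitm6 and Tlr12 passed without each of the 7 libraries. Lilra6 and Pirb, and Ly6c2 and the called pseudogene Ly6a2 (2.86 ± 0.41), have close relatives in the genome between which short reads can be divided, so their counts are uncertain.

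Whole marker lists moved less evenly. Of 12 monocyte markers 4 were called, all higher, and 11 estimates were above 0 (median 0.57), while their summed level was 1709 to 2264 CPM with Egf and 1411 to 1994 with vehicle, with overlap. For neutrophils, 3 of 10 tested markers were called, all higher (median 0.85), and the sums of 154 to 322 CPM with Egf were above the 94.4 to 142 with vehicle. Untreated lungs, at 85.4 to 142 CPM, also lay below all 4 Egf libraries in the neutrophil sum. All 10 B cell markers had estimates below 0 (median -0.78, no call in edgeR, 5 at an unadjusted p under 0.05, 0 in DESeq2 and 1 in limma voom), with sums of 84.0 to 181 CPM with Egf, 149 to 241 with vehicle and 296 to 391 in untreated lung. T cell (-0.37), erythroid (-0.78) and platelet (-0.57) medians were also negative and the NK cell median was 0.62, without a call in edgeR or DESeq2. At an unadjusted p under 0.05 edgeR had 2, 1, 0 and 1 markers of these lists in that order, and limma voom called 1 erythroid marker lower and 1 NK cell marker higher. Of cardiomyocyte markers, all 9 estimates were below 0 (median -0.72), with sums of 352, 438, 498 and 371 CPM with Egf and 702, 944 and 373 with vehicle, which overlapped. EdgeR called none of the 9 (0 at an unadjusted p under 0.05), DESeq2 0 and limma voom 4, all lower. Skeletal muscle markers summed to 142.5 CPM in vehicle library 1, while vehicle libraries 2 and 3, at 11.2 and 5.64, were near or within the 5.25 to 7.89 of the Egf libraries. The part of these cell types in the results was not tested, and the covariate fits do not measure it. Markers of some lung-resident types hardly moved. Medians were 0.07 for alveolar type I, 0.06 for alveolar type II and -0.015 for club cells. For ciliated cells, endothelial cells and alveolar macrophages they were 0.12, 0.04 and 0.01. Among these there was no call in edgeR, DESeq2 or limma voom and no marker at an unadjusted p under 0.05 in edgeR. Of 5 mesothelial markers (median 0.14) none was called, and edgeR had 1 at an unadjusted p under 0.05. Smooth muscle and fibroblast markers are given below.

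**Figure D3:**
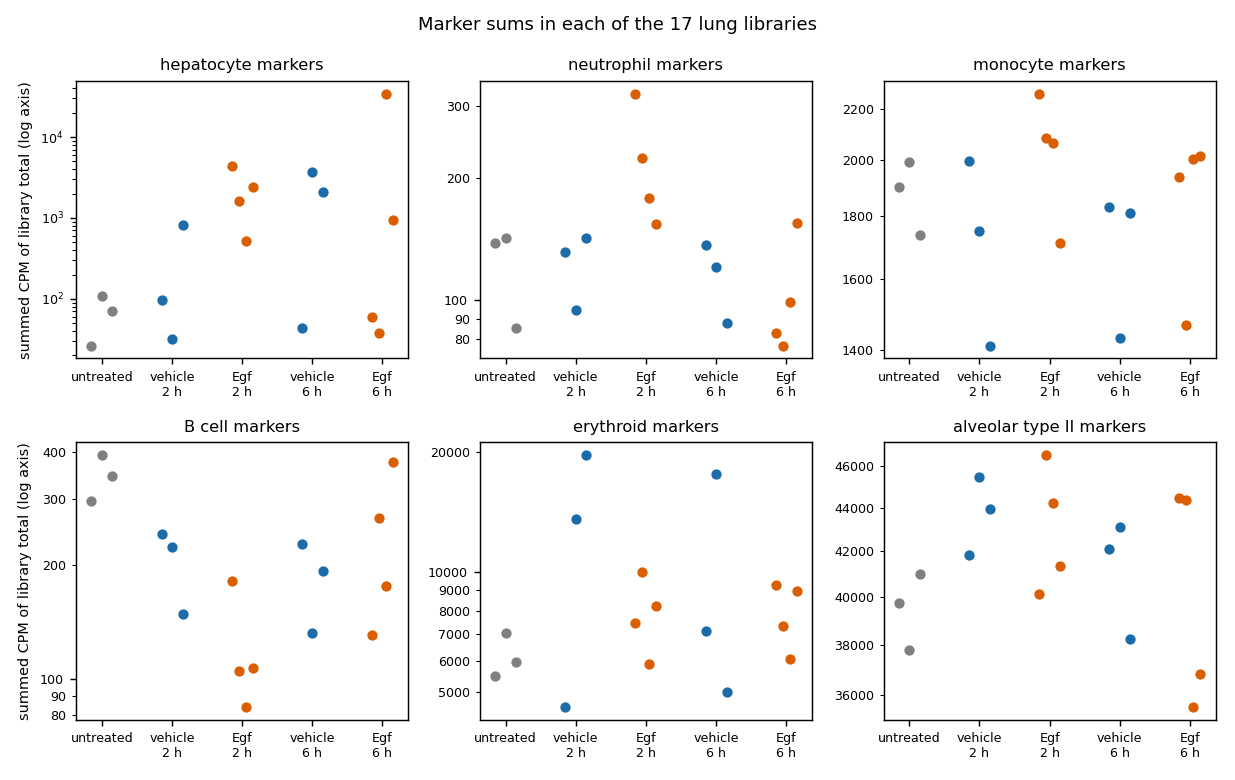
Summed CPM of the library total (y axes, log scale) of 6 marker lists in each of the 17 lung libraries, grouped by treatment and time on the x axis; each point is a library. Neutrophil sums of the Egf group at 2 h (154 to 322) lie above its vehicle group (94.4 to 142), hepatocyte sums spread widely within groups, and alveolar type II sums stay between 35540.4 and 46548.

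The Ly6c2 promoter is shown because it carries GAGGAAGT, a form of the element of Pu.1 and other Ets factors. The window is the first of 2 listed for the gene (GRCm38.p6, chr15:75111972-75112221, minus strand), with the match in capitals at -108.
Ly6c2: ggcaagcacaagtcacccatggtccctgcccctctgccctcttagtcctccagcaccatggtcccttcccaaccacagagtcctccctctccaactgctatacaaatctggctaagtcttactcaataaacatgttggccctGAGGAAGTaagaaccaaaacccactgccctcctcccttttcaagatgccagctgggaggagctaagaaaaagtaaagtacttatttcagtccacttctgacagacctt
On both strands, GAGGAAGT was found in 5 of 42 windows of the leukocyte genes (11.9%), in 4.11% of windows of the other rises, in 2.48% of windows of tested genes and in 2.44% of all windows. The share is a description of letters and was given no test.

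Interferon-inducible genes of the Ifi200 cluster rose as well. Ifi211 was at 5.68, 5.56, 5.44 and 7.53 CPM with Egf and 1.76, 2.16 and 1.84 with vehicle (1.65 ± 0.32, adjusted p = 0.0182), Ifi204 at 11.3, 10.4, 10.03 and 10.8 CPM with Egf and 3.66, 4.31 and 3.33 with vehicle (1.495 ± 0.29, adjusted p = 0.0230) and Ifi207 changed by 1.23 ± 0.27. These cytosolic DNA sensor relatives lie side by side on chromosome 1 and resemble each other, so reads may have been divided among them. Ifi204 reached 11.4 CPM in 1 untreated library, above every Egf library. Sting1, the adaptor of cytosolic DNA sensing, rose from 24.05 ± 4.05 to 37.5 ± 2.88 CPM (0.64 ± 0.11). On a list of 24 interferon genes only Ifi211 and Ifi204 were called, and the list median was 0.05.

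Falls were fewer and smaller. Npy1r, a receptor of neuropeptide Y on vascular smooth muscle, was at 0.938, 1.52, 1.55 and 1.51 CPM in the Egf libraries, 5.7003, 4.94 and 4.998 in the vehicle libraries and 6.97, 7.47 and 4.03 in untreated lungs. Every Egf library was below all 6 others, and the log2 change of -1.92 ± 0.21 (SE, adjusted p = 5.08e-04) was the largest of the called falls. Ptgfr, the prostaglandin F receptor, was at 10.7, 10.2, 9.45 and 12.2 CPM with Egf and 21.9, 20.03 and 19.1 with vehicle (-0.93 ± 0.13, adjusted p = 0.00147). Kcnh2, a potassium channel, was at 5.74, 5.23, 5.0996 and 5.35 CPM with Egf and 10.1, 11.7 and 8.44 with vehicle (-0.92 ± 0.14, adjusted p = 0.00348), and Ednra, the endothelin receptor of smooth muscle, at 44.5, 43.9, 42.6 and 48.8 CPM with Egf and 74.6, 64.8 and 70.5 with vehicle (-0.64 ± 0.13, adjusted p = 0.0250). Npy1r, Ptgfr and Kcnh2 passed without each of the 7 libraries. Of 28 genes of pulmonary vascular tone, 3 were called, all lower (Npy1r, Kcnh2 and Ednra), with a list median of -0.16, while 10 smooth muscle and pericyte markers had a median of 0.09 and no call in edgeR (4 at an unadjusted p under 0.05, 0 in DESeq2 and 1, higher, in limma voom).

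Genes of Wnt and Hedgehog signalling also fell. Gas1, a Hedgehog coreceptor known as a growth arrest gene, was at 15.9, 22.98, 21.4 and 19.5 CPM with Egf, 42.3, 44.5 and 46.9 with vehicle and 40.1, 47.5 and 47.3 in untreated lungs. Egf lungs held less than every vehicle and untreated lung, the log2 change was -1.16 ± 0.13 (SE, adjusted p = 5.08e-04), and the gene passed without each of the 7 libraries. Wnt3a, a Wnt ligand, was at 7.83, 10.1, 11.1 and 9.98 CPM with Egf and 21.2, 16.8 and 15.7 with vehicle (-0.88 ± 0.14, adjusted p = 0.00642). Dact3, a Wnt inhibitor, was at 11.9, 14.5, 12.2 and 11.04 CPM with Egf and 26.6, 19.7 and 22.98 with vehicle (-0.90 ± 0.17, adjusted p = 0.0158), and Fzd2, a Wnt receptor, at 19.9, 23.5, 24.1 and 21.3 CPM with Egf and 33.3, 38.6 and 28.1 with vehicle (-0.59 ± 0.11, adjusted p = 0.0222). Vehicle means of all 4 were below the untreated means, as were those of 8435 of the 16778 genes tested. For Gas1 the 2 means lay within their spread, at 44.6 ± 2.32 and 44.97 ± 4.19 CPM (SD).

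On the Hedgehog list 13 of 15 estimates were below 0 with a median of -0.31 and Gas1 as the single call, and the next by p, Hhip, was at 30.2, 24.3, 27.7 and 32.8 CPM with Egf and 44.3, 38.2 and 39.7 with vehicle (adjusted p = 0.274). On the Wnt list 22 of 28 were below 0 with a median of -0.18 and 2 calls. Lung fibroblast markers, 12 in number, had a median of -0.16 and no call in edgeR (2 at an unadjusted p under 0.05, 0 in DESeq2 and 1, higher, in limma voom), and their part in these falls was not tested. Other falls were Vcam1, an adhesion molecule (-0.59 ± 0.13), the clock repressor Cry2 (-0.55 ± 0.12), Gypc, a membrane skeleton protein (-0.76 ± 0.13), Vstm4 (-0.81 ± 0.13), C1qtnf7 (-0.77 ± 0.14), Pnma8b (-1.06 ± 0.23), the glycosyltransferase B3gnt9 (-0.78 ± 0.17), Slc27a3 (-0.82 ± 0.19), the calcium channel Trpv6 (-0.76 ± 0.16) and Iglv1, an immunoglobulin light chain segment (-1.79 ± 0.36).

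Several pathway lists gave no call in edgeR. These were glucocorticoid-responsive genes (18 tested, median 0.31, 3 at an unadjusted p under 0.05, 0 in DESeq2 and 1 in limma voom), the unfolded protein and amino acid response (20 tested, median 0.17, 5 at an unadjusted p under 0.05, 1 in DESeq2 and 4 in limma voom), ribosome biogenesis (22 tested, 0.13, 7 at an unadjusted p under 0.05, 2 in DESeq2 and 4 in limma voom) and cholesterol synthesis (23 tested, 0.23, 5 at an unadjusted p under 0.05, 0 in DESeq2 and 1 in limma voom). Klf9, a glucocorticoid target, was at 343, 299, 359.8 and 339 CPM with Egf and 257, 241 and 241 with vehicle without overlap, with adjusted p = 0.313. Over all pathway lists together 25 different genes were called. Cytokine and NF-kB genes gave Bcl3 higher and Vcam1 lower among 23, and prostaglandin genes Ptger4 higher and Ptgfr lower among 16.

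At 6 h edgeR called 0 of 16778 genes (0%), while DESeq2 called 7 and limma voom 0. At an unadjusted p under 0.05, edgeR had 907 of the 16778 genes at 6 h. Of the 141 genes called at 2 h it had 21. Each of the 141 genes, chosen for their values at 2 h, had an estimate closer to 0 at 6 h, where the medians were 0.09 for the rises and -0.0094 for the falls, and 95 of 141 kept the sign. Hbegf was at 88.1 ± 4.74 CPM with Egf (SD, n = 4) and 60.4 ± 7.19 with vehicle (n = 3) at 6 h, a log2 change of 0.54 ± 0.15. For Nr4a3 the levels at 6 h were 7.98 ± 1.96 and 5.197 ± 0.822 CPM, and for Thbs1 122 ± 15.05 and 110.03 ± 31.2 CPM, near the untreated lungs, which held 3.65, 13.7 and 3.71 CPM of Nr4a3 and 123, 184 and 118 of Thbs1. Leukocyte genes had a median of 0.0053 at 6 h, with 19 of 41 estimates below 0, transcription factors and coregulators 0.39 and matrix genes 0.16 with none below 0.

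The difference of the effects, 6 h minus 2 h, was itself called for 7 genes (0.0417% of 16778). Of these, Prss22, Ifitm6, F13a1, Gas1, Ccr2 and the pseudogene Ly6a2 were called at 2 h, each with an effect nearer 0 at 6 h. The Gas1 level at 6 h was 46.7 ± 5.82 CPM with Egf and 45.7 ± 5.58 with vehicle, against 19.9 ± 3.05 and 44.6 ± 2.32 at 2 h. Ccr2 was at 25.0 ± 3.51 and 25.8 ± 1.95 CPM at 6 h. Ogt, the enzyme that adds O-GlcNAc to proteins, had a log2 change of -0.36 ± 0.093 at 2 h (adjusted p = 0.0939) and 0.42 ± 0.094 at 6 h. All 7 differences were lost without vehicle 2 h library 2 or 3, and 2 to 7 were called without another library, those left out from the 6 h groups included. Egf 6 h library 3 stood apart with 34376 CPM of hepatocyte markers, against 37.7 to 930.4 in the other Egf lungs at 6 h. Vehicle 6 h libraries 1 to 3 held 43.5, 3651 and 2097 CPM of these markers. Without Egf 6 h library 3, 3 differences were called. For Hbegf (adjusted p of the difference = 0.0763) and Thbs1 (0.0763) the difference between the times did not pass.

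**Figure D4:**
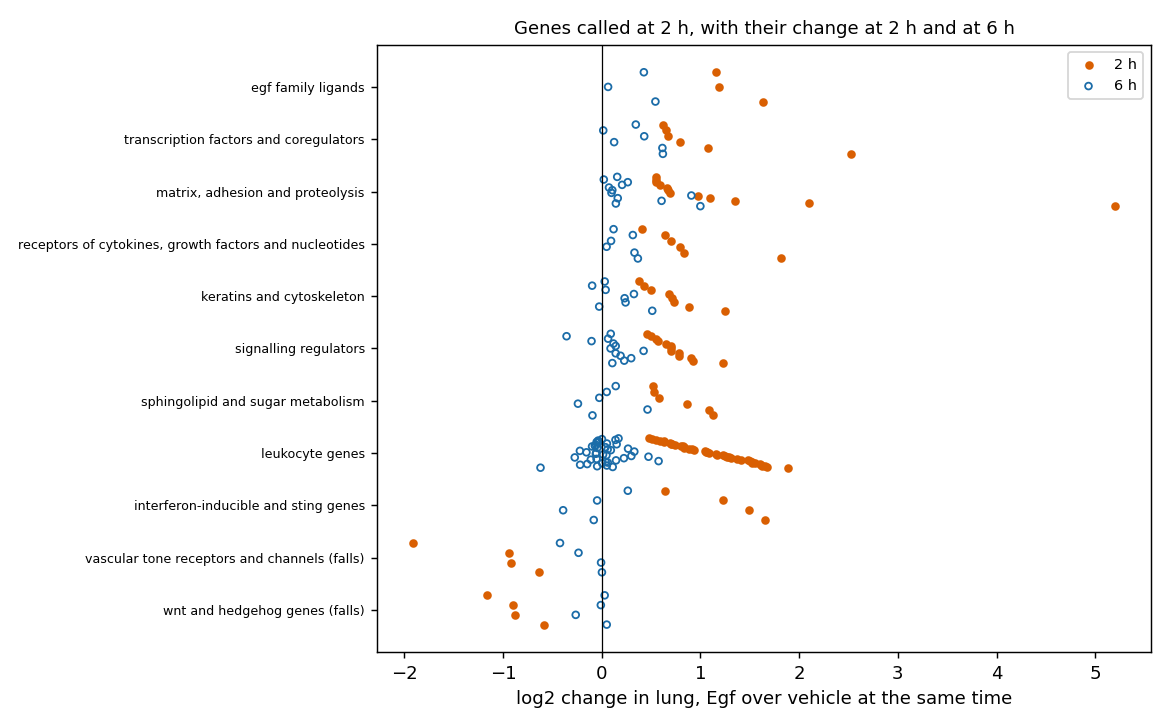
Log2 change of Egf over vehicle (x axis) at 2 h (filled points) and 6 h (open points) for 107 genes called at 2 h, in rows by role. At 2 h the rows lie to the right of 0, or to the left for the 2 rows of falls; at 6 h the points gather around 0, with medians between -0.12 and 0.43.

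The lung effect at 2 h was set against the mean of the effects in heart, kidney and liver in a fit over all 68 libraries. Their labels do not say which organs came from the same mouse, and the fit treated the libraries as independent. Of 18736 genes, 2 differed (0.0107%), both with a lower estimate in lung. Bcl2l11, which encodes the cell death inducer Bim, had a log2 change of -0.090 ± 0.15 (SE) in lung, 0.24 ± 0.15 in heart, 0.049 ± 0.16 in kidney and 3.18 ± 0.17 in liver. Lung minus the mean of the others was -1.25 ± 0.18 with adjusted p = 5.76e-05. Rell1, a relative of the receptor Relt, stood at 0.16 ± 0.13, -0.012 ± 0.14, 0.60 ± 0.14 and 2.24 ± 0.15 in that order (difference -0.78 ± 0.15, adjusted p = 0.0468). In both genes liver had by far the largest estimate. Spred1, Dusp5 and Egr2 came next and did not pass (adjusted p = 0.0598 for each), and for none of the 140 lung-called genes tested there was the difference called.

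Most of the lung calls had estimates of the same sign in the other organs. The sign was shared by 114 of 140 in heart, 110 in kidney and 104 in liver. The medians of the lung rises there were 0.53, 0.28 and 0.42, against -0.0064, -0.00059 and 0 over all genes. In the same fit 45 of the 140 were called in lung itself, where 49 genes were called in all (0.262%). Of the 140, 24 were called in heart (background 1.55% of genes), 11 in kidney (0.213%) and 39 in liver (5.91%), and all but 2, both in liver, went the way of lung. Thbs1 had log2 changes of 2.53 ± 0.32 in heart, 0.86 ± 0.29 in kidney and 3.100 ± 0.35 in liver, beside 2.097 ± 0.31 in lung. Tnfrsf12a stood at 0.55 ± 0.23, 2.05 ± 0.25 and 4.26 ± 0.28, beside 1.81 ± 0.24, and the lung effect was smaller than that of liver (adjusted p = 2.26e-06).

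Gas1 stood at -0.98 ± 0.14 in heart, -0.22 ± 0.14 in kidney and -2.46 ± 0.15 in liver, and lung at -1.16 ± 0.14 differed from liver (adjusted p = 2.96e-05). It was called lower in heart and liver as in lung. Ccr2 was at 0.39 ± 0.31 in heart, 0.082 ± 0.30 in kidney and 0.38 ± 0.33 in liver, against 1.65 ± 0.27 in lung, a difference from the mean of the others of 1.37 ± 0.32 that did not pass (adjusted p = 0.0980). Hbegf rose in lung (1.63 ± 0.20), kidney (1.09 ± 0.20) and liver (1.39 ± 0.30). Its heart estimate was 0.15 ± 0.19, and lung minus heart was called (adjusted p = 0.0239).

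**Figure D5:**
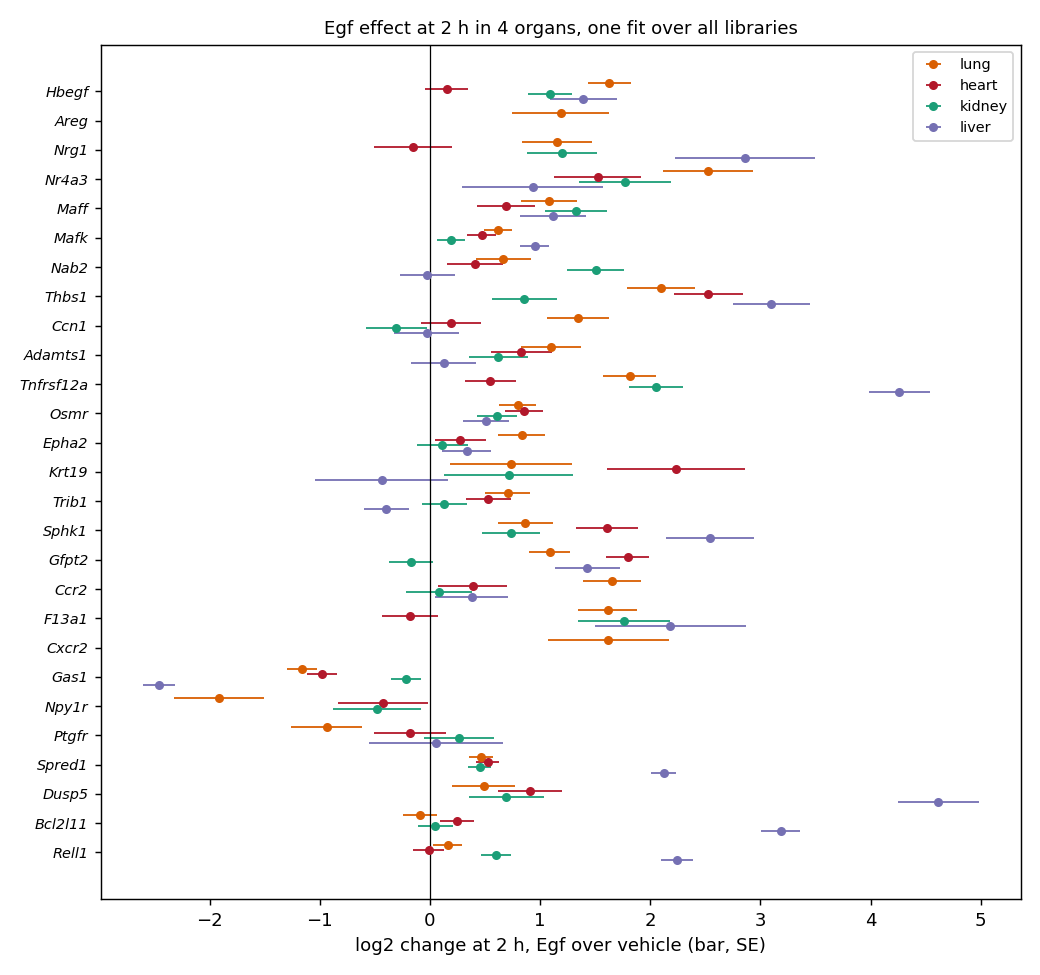
Log2 change of Egf over vehicle at 2 h (x axis) in lung, heart, kidney and liver for named genes, from the fit over 68 libraries; points are estimates, bars the SE, and estimates with an SE above 1 are not drawn. For Bcl2l11, Rell1, Spred1 and Dusp5 the liver points lie at 2.12 to 4.61, to the right of the other organs. Lung lies furthest right for several genes, Hbegf, Ccn1, Ccr2, Nr4a3, Epha2 and Trib1 among them. For none of these was the lung difference from the mean of the other organs called.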

How the data were processed

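Lung RNA was sequenced by the authors from pulverised tissue with a non-directional library kit, per the labels' protocols. The deposited values are unnormalized counts of reads assigned to each gene, made by the authors with HISAT2 2.0.5 and featureCounts 1.5.0-p3 on build mm39, per the submitters' processing notes; the annotation release is not given in the sources used here. Without strand, reads of overlapping or antisense genes cannot be told apart. Samples were grouped by their labels, and the count columns by the sample names in the file header.

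Counts were tested with edgeR 4.0.16 in R 4.3.3 (quasi-likelihood, robust, TMM scaling, filterByExpr, Benjamini-Hochberg) in 1 fit over the 17 lung libraries. The difference between times used the same fit, and the comparison with other organs a fit over 68 libraries. Alternatives were DESeq2 1.42.0, limma 3.58.1 voom with quality weights, other size factors, no filter, marker covariates, a replicate block and each library left out. The scripts were tested on simulated data. Depth of the 7 libraries compared was 17804061 to 21430960 reads, and no 2 libraries agreed within sampling noise. Named genes had an adjusted p under 0.05, a mean of at least 1 CPM in either group, groups without overlap and an informative symbol: the 20 rises and 15 falls with the largest change, others of that kind by their change, tested receptors and ligands of the family, and up to 4 members of each list by p. The members, lists and roles were chosen with earlier results of these data known. Promoter windows came from RefSeq on GRCm38.p6 and serve only for sequence, not for mm39 positions.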

Additional observations from a re-analysis of the deposited data

Results flagged for a closer look

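In the 4 Egf libraries, 16 of 170 values examined had 1 library apart from the other 3, by the ratio of its gap to the range of the group against a critical value of 0.829. Chance flags about 1 in 20 groups. Egf library 1 stood high for Ifitm6 (ratio 0.86), Pld4 (0.887), Itgam (0.869) and Mmp9 (0.874), all expressed in myeloid cells, at 11.7, 50.5, 9.43 and 28.7 CPM against at most 7.64, 42.3, 5.79 and 18.9 in the other 3. It also held the highest share of mitochondrial reads, 1.83% against 1.53%, 1.55% and 1.54% (0.945), and stood low for Npy1r (0.931) and Trim16 (0.917). Library 2 stood high for Ccn1 (0.83). Library 3 stood high for Krt19 (0.925), Stk40 (0.869), Tgfa (0.897) and Erbb3 (0.855), and library 4 for Nr4a3 (0.848), Tubb6 (0.831), Ifi211 (0.886) and Plaur (0.847).

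The effect of Egf differed between 6 h and 2 h by the test of the difference for Prss22 (log2 difference -4.20), Ly6a2 (-3.31), Ifitm6 (-2.51), F13a1 (-1.83), Ccr2 (-1.70), Gas1 (1.19) and Ogt (0.78). Between lung and the mean of the other organs it differed for Bcl2l11 (-1.25) and Rell1 (-0.78).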

How the results depend on the processing

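Of the 135 named calls at 2 h, 27 passed whichever of the 7 libraries was left out, and Prss22 alone passed in all 19 alternatives. None changed direction in the 19. In the fits without a library this was all but fixed in advance, as the groups of these genes did not overlap. The count of 141 calls became 134 with RLE size factors and 115 without a filter, 315 with DESeq2, 843 with limma voom and 64 when the 7 libraries were fitted alone. It was 48 to 114 without a library. With a marker covariate it was 85 (hepatocyte), 26 (neutrophil), 193 (monocyte) and 100 (B cell). The neutrophil sum did not overlap between the groups and so cannot be separated from treatment. Leaving out libraries over 1500 CPM of hepatocyte markers left 1 Egf library and 5 calls, and a limit of 2000 CPM, chosen after seeing the data, left 2 and 26 calls. With the replicate number as a block 75 genes were called. Same-numbered Egf and vehicle libraries did not deviate together (r = -0.16, 0.072 and -0.54), but so few libraries cannot decide whether the numbers pair them.

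For the difference between the times the count of 7 became 173 with limma voom and 48 with DESeq2, stayed at 7 with the replicate block, and was 0 to 7 without a library. Against the other organs the count of 2 became 1 without a filter, 177 with limma voom and 4 with a block for the mouse number, and was 1 to 3 without a library. Members called over the pathway lists went from 25 to 31 at an adjusted p under 0.10. Estimates that changed sign were all of genes not called: Egfr (-0.33 with the hepatocyte and -0.092 with the monocyte covariate), Alb (-0.13, hepatocyte), Nrg4 (-0.076, hepatocyte, -0.010 to 0.39 over the fits without a library, negative without Egf library 1, and -0.047 under the 2000 CPM limit), Ereg (-0.075, neutrophil), Erbb4 (0.42, neutrophil) and Btc (0.054, neutrophil and monocyte). The causes were not tested. Depth limited the vehicle level of Prss22 to 4 reads over 3 libraries.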
